A study of Mus musculus with 10 samples.

Results

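The 10 genes described here encode the machinery by which a cell presents peptides from its own proteins on major histocompatibility complex (MHC) class I molecules. They were taken from the rows of the deposited table with the symbols H2-K1, H2-D1, B2m, Tap1, Tap2, Tapbp, Psmb8, Psmb9, Nlrc5 and Erap1, so that all 10 of 10 listed genes had a row among the 26335 rows of the table. RNA sequencing was performed on a cultured mouse line of small cell lung cancer (mSCLC), established from the primary lung tumor of an animal with conditional alleles, Rb1 among them, deleted by intratracheal delivery of an adenovirus encoding Cre. Both groups shared this genotype. The 5 control libraries came from cells given DMSO and the 5 stiripentol libraries from cells given 250 μM stiripentol, an antiseizure drug, for 48 h. The cells are a single line, and nothing in the labels says that the libraries of a group came from separate cultures, so the tests measure the spread between these libraries. The mouse strain, which sets the class I alleles, was not given in the sources used here.

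In class I presentation, proteasomes cut proteins into peptides, and a transporter made of TAP1 and TAP2 carries the peptides into the endoplasmic reticulum. There the peptides are trimmed and loaded, with the help of tapasin, onto a class I heavy chain that is bound to β2-microglobulin. The loaded complex travels to the cell surface, where CD8+ T cells read it. Interferon γ induces most of the genes of this pathway together, through factors that include IRF1 and the transactivator NLRC5, and small cell lung cancer is known for low class I expression.

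The promoter sequences are shown for 7 genes because the class I genes are known to share regulatory elements upstream of their start sites, and because Tap1 and Psmb9 are read in opposite directions from a common stretch. RefSeq (GRCm38.p6) gave an upstream sequence of 250 bases for 8 of the 10 genes, all but Tap2 and Nlrc5. Capitals mark 4 short motifs on either strand: GAANNGAA, GGGNNTTCC (NF-κB), TGACG (the CRE-like core of the X2 box) and CCAAT. Of 27025 promoters of this length, 17.3%, 4.88%, 17.9% and 34.5% held these motifs, respectively. CCAAT reads ATTGG on the other strand. GAANNGAA is a form of the interferon-stimulated response element. Forms of the motifs with another spacing were not searched for and stay in lower case. In the B2m stretch, gaaactgaaa is such a form of GAANNGAA, and ggaaagtccc, on the other strand, is such a form of GGGNNTTCC. No motif overlapped another in the printed sequences. The start sites are those of RefSeq and can differ from the ends of the GENCODE gene positions given below. The H2-D1, Tapbp and Psmb8 stretches, and that between Psmb9 and Tap1, lie within the GENCODE bounds of a gene named here. The stretches lie at chr17:34000348-34000597 (minus strand) for H2-K1, chr17:35262844-35263093 (plus) for H2-D1, chr2:122147437-122147686 (plus) for B2m, chr17:33919228-33919477 (plus) for Tapbp, chr17:34197945-34198194 (plus) for Psmb8 and chr17:34187331-34187555 (plus, 225 bases) between the start sites of Psmb9 and Tap1.
H2-K1: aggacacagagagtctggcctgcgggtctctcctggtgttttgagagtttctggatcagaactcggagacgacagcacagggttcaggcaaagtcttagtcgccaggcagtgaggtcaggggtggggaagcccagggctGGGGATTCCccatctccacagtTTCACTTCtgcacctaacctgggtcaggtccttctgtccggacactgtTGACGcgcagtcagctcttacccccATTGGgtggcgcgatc
H2-D1: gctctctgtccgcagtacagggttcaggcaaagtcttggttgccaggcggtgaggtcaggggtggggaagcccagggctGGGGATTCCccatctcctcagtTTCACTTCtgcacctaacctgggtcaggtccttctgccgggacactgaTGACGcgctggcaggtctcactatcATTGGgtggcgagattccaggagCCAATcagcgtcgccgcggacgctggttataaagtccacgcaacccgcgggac
B2m: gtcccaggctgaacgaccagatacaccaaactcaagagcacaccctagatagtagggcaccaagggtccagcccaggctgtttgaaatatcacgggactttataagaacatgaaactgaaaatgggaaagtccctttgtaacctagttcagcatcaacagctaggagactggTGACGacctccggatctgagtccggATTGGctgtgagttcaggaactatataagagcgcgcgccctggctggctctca
Psmb9 and Tap1: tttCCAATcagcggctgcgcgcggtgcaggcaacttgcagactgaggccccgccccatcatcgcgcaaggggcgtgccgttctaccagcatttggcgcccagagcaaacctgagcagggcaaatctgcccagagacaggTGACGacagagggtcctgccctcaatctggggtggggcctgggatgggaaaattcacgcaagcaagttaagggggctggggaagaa
Tapbp: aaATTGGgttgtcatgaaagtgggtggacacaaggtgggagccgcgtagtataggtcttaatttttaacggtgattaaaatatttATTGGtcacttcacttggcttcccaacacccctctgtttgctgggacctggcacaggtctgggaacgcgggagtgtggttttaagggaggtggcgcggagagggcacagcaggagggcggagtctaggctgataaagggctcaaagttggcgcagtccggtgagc
Psmb8: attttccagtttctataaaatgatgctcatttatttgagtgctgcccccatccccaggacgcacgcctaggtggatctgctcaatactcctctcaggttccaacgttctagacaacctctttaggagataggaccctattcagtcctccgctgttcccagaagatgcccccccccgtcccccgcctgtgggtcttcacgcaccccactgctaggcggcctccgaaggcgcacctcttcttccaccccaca
In H2-K1, H2-D1 and B2m, TGACG began 25 bases before ATTGG. H2-K1 and H2-D1 also held GGGNNTTCC and GAANNGAA upstream of this pair, in the same order. A search for the same pair at the same distance found it in 25 of 27025 promoters (0.0925%), and these 3 genes were among them. The pair was chosen after the sequences had been seen, so its share is a description. The stretch between Psmb9 and Tap1 held 1 TGACG, 86 bases before the start of Tap1, and 1 CCAAT, 4 bases from the start of Psmb9. The Tapbp stretch held 2 copies of ATTGG, and the Psmb8 stretch held none of the 4 motifs in this window. The Erap1 stretch, which is not printed, held 1 GAANNGAA on the other strand.

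All values are log2 CPM, the log2 of the share of the reads of a library that fell on a gene, in the usual CPM scaling, with a small prior added. Libraries held 22375625 to 65299372 reads in control, with control 5 the lowest, and 55015760 to 60670901 in stiripentol. Every gene of the pathway but Nlrc5 had at least 332 reads in each library, and Nlrc5 had 30 to 183. Within each group, the libraries fell into 2 clusters over all genes, here called library set 1 (controls 4 and 5, stiripentol 1 and 2) and library set 2 (controls 1 to 3, stiripentol 3 to 5). The correlation across genes was 0.989 to 0.994 within a cluster and 0.974 to 0.981 between the clusters of a group. The clusters were found in these values and no label names them. The control and stiripentol clusters were matched by their number of libraries, which the values do not decide. A gene without reads had the value -4.815 in controls 1 to 3 and -4.741 in controls 4 and 5 and every stiripentol library. The prior, relative to library size, thus differed between the set 2 controls and all other libraries, including the stiripentol libraries matched with them. Whether controls 1 to 3 were otherwise processed apart was not tested. Of the neuroendocrine markers of small cell lung cancer, Insm1 had at most 10 reads in any library, whereas Ncam1 was expressed. The level of the whole list of 5 markers with a row was 93.4 to 120 CPM in control and 127 to 157 CPM in stiripentol, mostly from Ncam1. Among the haematopoietic markers, Ptprc and Itgam had at most 10 reads in every library, while the summed level of all 6 with a row was 6.52 to 19.0 CPM in control and 59.0 to 103 CPM in stiripentol, where Cd68 was 9.23-fold higher (limma adjusted p = 0.000819). The 4 stromal and endothelial markers summed to 145 to 382 CPM in control and 96.9 to 123 CPM in stiripentol. The part of these differences in the results on class I genes was not tested, and in such bulk libraries fewer cells of a type and less RNA per cell cannot be told apart.

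To determine whether stiripentol changed the expression of the pathway, the groups were compared with limma over 12306 genes, those whose log2 CPM averaged above 0, and a gene was called at a Benjamini-Hochberg adjusted p under 0.05. All 10 genes passed this filter. Tapbp and Psmb8 were called lower with stiripentol, and none of the 10 was called higher. By limma, 5 genes had an unadjusted p under 0.05 (B2m, Tap1, Tap2, Tapbp and Psmb8). Over all genes tested, 14.1% were called lower and 13.6% higher, so that 2 of 10 is near the background. The median log2 change was -0.06 over the 10 genes, 5 of them with a positive and 5 with a negative value, and -0.06 over all genes.

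**Figure D1:**
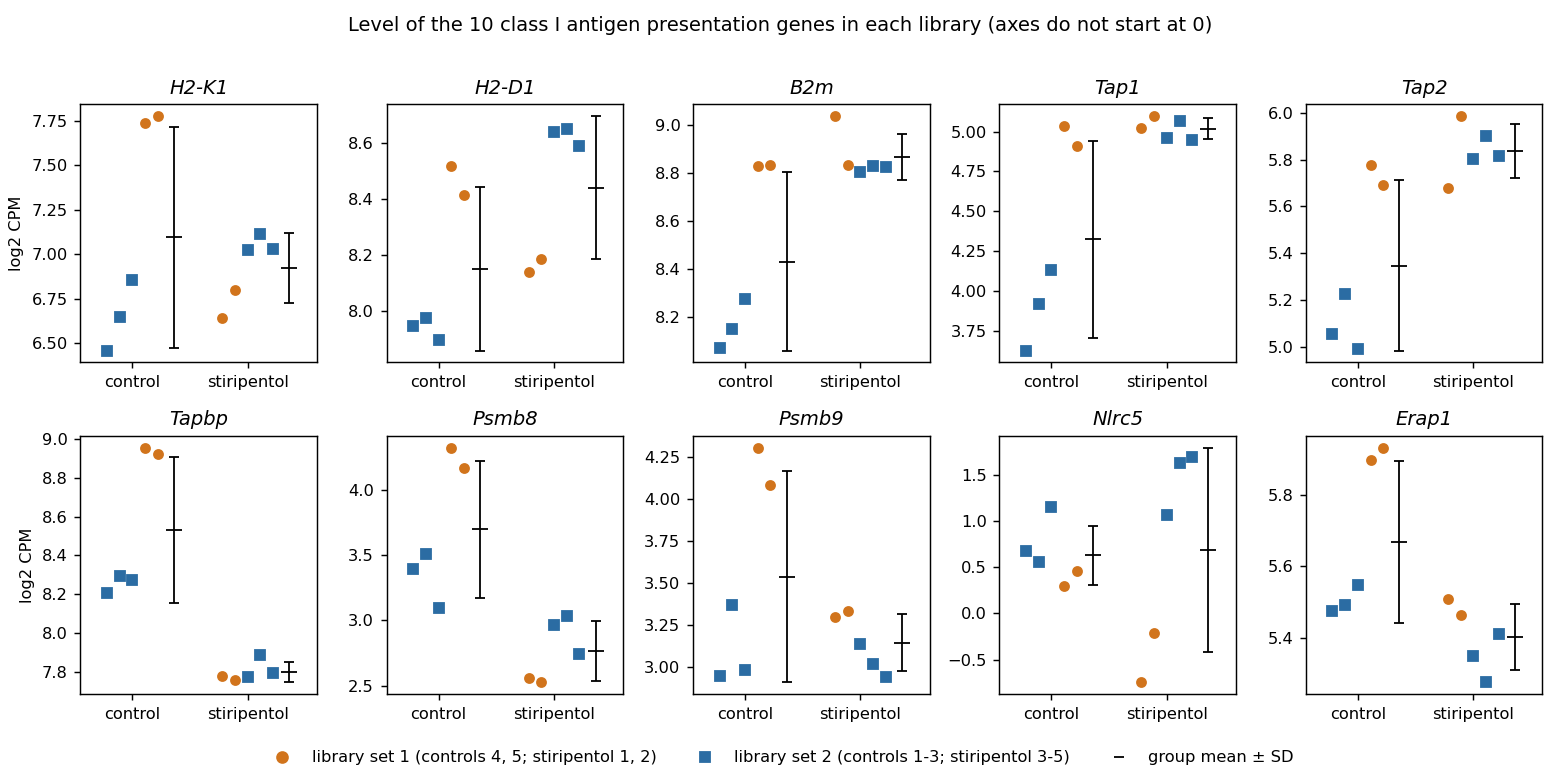
Level of each of the 10 genes in each library (log2 CPM, vertical axis, not starting at 0), with controls and stiripentol libraries side by side, library set 1 as circles, library set 2 as squares, and the group mean ± SD in black. In 9 of the 10 panels, all but Nlrc5, both set 1 controls sit above the 3 set 2 controls, and in the Tapbp and Psmb8 panels all stiripentol libraries sit below all controls.

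The class I heavy chains H2-K1 and H2-D1 form the peptide groove that T cells recognise. They lie on chromosome 17, at chr17:33996017-34000347 (minus strand) and chr17:35262730-35267499 (plus strand) in GRCm38. H2-K1 was 6.46, 6.65, 6.85, 7.74 and 7.78 in controls 1 to 5 and 6.64, 6.80, 7.02, 7.11 and 7.03 in stiripentol libraries 1 to 5. All stiripentol libraries were above control 1 and below controls 4 and 5, and stiripentol 1 was level with control 2. The mean was 7.09 ± 0.621 (SD, n = 5) in control and 6.92 ± 0.196 in stiripentol, a log2 change of -0.17 (SE 0.26, limma adjusted p = 0.634), with a 95% confidence interval of -0.75 to 0.40. Leaving out 1 library moved it between -0.33 (without control 1) and -0.0031 (without control 5). H2-D1 was 7.95, 7.97, 7.90, 8.52 and 8.42 in controls and 8.14, 8.19, 8.64, 8.65 and 8.59 in stiripentol libraries. Controls 4 and 5 were above stiripentol 1 and 2, and controls 1 to 3 were below all stiripentol libraries, so the groups overlapped. The log2 change was 0.29 (SE 0.17, limma adjusted p = 0.201).

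Reads of H2-K1 and H2-D1 are the least certain of the 10 genes. The transcripts of these genes were 90.6% identical over 1404 nucleotides, and H2-Q4 matched H2-K1 at 91.4% over 945 nucleotides and H2-D1 at 91.6% over 940. None of the other 8 genes had a match of at least 90% over 200 nucleotides in another gene. How the authors assigned reads that fit several class I genes was not given in the sources used here.

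B2m (chr2:122147686-122153083, plus strand) encodes β2-microglobulin, the light chain without which class I molecules do not reach the surface. It was 8.07, 8.15, 8.27, 8.83 and 8.83 in controls and 9.04, 8.83, 8.80, 8.83 and 8.83 in stiripentol libraries. Controls 4 and 5 were at the level of the stiripentol libraries, and controls 1 to 3 were below it. The log2 change was 0.44 (SE 0.16), a 1.35-fold difference, and was not called (limma adjusted p = 0.0698).

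Tap1 (chr17:34187553-34197225, plus strand) and Tap2 (chr17:34203527-34216321, plus strand) encode the subunits of the peptide transporter. Tap1 was 3.63, 3.92, 4.13, 5.03 and 4.91 in controls and 5.02, 5.10, 4.96, 5.07 and 4.95 in stiripentol libraries. The stiripentol libraries spread little, and control 4 was the only control within their range. The mean was 4.32 ± 0.619 (SD, n = 5) in control and 5.02 ± 0.066 in stiripentol, a 1.62-fold difference that was not called (log2 change 0.69, SE 0.26, limma adjusted p = 0.0682). Tap2 was 5.06, 5.22, 4.99, 5.78 and 5.69 in controls and 5.68, 5.99, 5.80, 5.90 and 5.82 in stiripentol libraries. Again controls 1 to 3 were below every stiripentol library, while controls 4 and 5 were above the lowest of them. The log2 change of Tap2 was 0.49 (SE 0.17, limma adjusted p = 0.0526).

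The calls on B2m, Tap1 and Tap2 changed with the 2 high controls and with the scaling. Without control 4, these 3 genes were called higher, with log2 changes of 0.54, 0.87 and 0.60 (13.9% of all genes were). Without control 5 they were called higher as well, with 0.54, 0.84 and 0.58 (13.1% of all genes). With all libraries and a term for the library set described above, they were called higher too (limma adjusted p = 0.00796, 0.0131 and 0.0123). In that model 23.6% of all genes were called higher, whereas with 1 mean per group and set no gene was called. The calls also rested on the match of the sets. With the sets matched the other way, B2m and Tap1 were not called (limma adjusted p = 0.0608 and 0.0521). Tap2 and H2-D1 were then called higher (limma adjusted p = 0.0330 and 0.0311), as were 18.5% of all genes. Tap2 was also called higher after quantile normalization, median ratio scaling and with limma voom on the recovered reads (limma adjusted p = 0.0317, 0.0334 and 0.0377). Tap1 was called higher after median ratio scaling and with voom (limma adjusted p = 0.0491 and 0.0404). Under quantile normalization, median ratio scaling and voom, 17%, 14.5% and 14.3% of all genes were called higher.

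Tapbp (chr17:33915899-33929292, plus strand) encodes tapasin, which bridges class I molecules and the transporter and favors the binding of stable peptides. It was 8.21, 8.29, 8.27, 8.96 and 8.92 in controls and 7.78, 7.76, 7.77, 7.89 and 7.79 in stiripentol libraries. All stiripentol libraries were below all controls, and controls 4 and 5 were the highest. Tapbp fell by 0.73 on the log2 scale (SE 0.16), to 0.602 of the control level (limma adjusted p = 0.00870). Its transcripts overlap those of Zbtb22 on the same strand over 149 exonic nucleotides and those of Gm19412 on the other strand over 904. Gm19412 had at most 69 reads in any library. Zbtb22, with at most 3588 reads against at least 10862 for Tapbp, also fell, by 0.70 (SE 0.19, limma adjusted p = 0.0217), and the share of Tapbp reads that belong to the overlap was not tested.

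Psmb8 (chr17:34197721-34201454, plus strand) and Psmb9 (chr17:34181987-34187764, minus strand) encode the immunoproteasome subunits β5i and β1i, which replace the constitutive β5 and β1 and change the cleavage preference of the proteasome. Psmb8 was 3.39, 3.51, 3.10, 4.32 and 4.17 in controls and 2.56, 2.53, 2.96, 3.03 and 2.74 in stiripentol libraries. All stiripentol libraries were below all controls, although control 3 was close to the highest of them. Psmb8 fell by 0.93 (SE 0.25), to 0.524 of the control level (limma adjusted p = 0.0212). It missed the threshold after quantile normalization (adjusted p = 0.0522 with limma) and without stiripentol 2 (0.0508). Psmb9 was 2.94, 3.37, 2.98, 4.31 and 4.09 in controls and 3.29, 3.33, 3.14, 3.02 and 2.94 in stiripentol libraries, so that the stiripentol libraries overlapped controls 1 to 3 and were below controls 2, 4 and 5. Its log2 change was -0.39 (SE 0.28, limma adjusted p = 0.305), and -0.54 to -0.20 when 1 library was left out (control 1 and control 4, respectively). Over all genes tested, the groups did not overlap for 13% with stiripentol higher and for 14.3% with stiripentol lower, and Tapbp and Psmb8 were the 2 of 10 with stiripentol lower.

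Erap1 (chr13:74639568-74693201, plus strand) encodes the aminopeptidase that trims peptides to the length class I molecules hold. It was 5.47, 5.49, 5.55, 5.90 and 5.93 in controls and 5.51, 5.47, 5.35, 5.28 and 5.41 in stiripentol libraries. Controls 4 and 5 were above all others, and stiripentol 1 and 2 were at the level of controls 1 to 3. The log2 change was -0.27 (SE 0.13, limma adjusted p = 0.136), and it was called lower with a term for the library set (limma adjusted p = 0.0161). With the sets matched the other way, that term gave no call (limma adjusted p = 0.0635). Erap1 overlaps Cast on the other strand over 834 exonic nucleotides, and since no source gives the strand setting of the counting, reads of these genes cannot be told apart there. Cast rose by 0.28 (limma adjusted p = 0.0495).

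Nlrc5 (chr8:94434356-94527272, plus strand) encodes the transactivator that is recruited to class I promoters through their X and Y boxes. It was 0.68, 0.55, 1.15, 0.30 and 0.46 in controls and -0.74, -0.21, 1.07, 1.63 and 1.69 in stiripentol libraries. Stiripentol 1 and 2 were below every control, and stiripentol 4 and 5 were above every control. The SD was 1.10 in stiripentol against 0.322 in control, and the log2 change was 0.06 (SE 0.48, limma adjusted p = 0.935). Over all libraries the change of Nlrc5 was smaller than its spread, and its values by library set differed in sign.

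The controls of the pathway differed by library set. In 9 of the 10 genes, all but Nlrc5, both set 1 controls were above the 3 set 2 controls, which held for 36.8% of all genes tested, and the median of control set 1 minus control set 2 was 0.67 over the 10 genes. Over all genes tested, this median was 0.02. The differences were 1.10 for H2-K1, 1.10 for Psmb9, 1.08 for Tap1, 0.91 for Psmb8, 0.68 for Tapbp, 0.67 for B2m, 0.64 for Tap2, 0.53 for H2-D1, 0.41 for Erap1 and -0.41 for Nlrc5. Among the stiripentol libraries, set 1 minus set 2 was -0.46 for H2-D1, -0.34 for H2-K1, -0.37 for Psmb8 and -1.94 for Nlrc5, and between -0.05 and 0.28 for the other 6 genes. The sets thus differed more among controls than among stiripentol libraries for 9 genes, with Nlrc5 the exception.

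The change with stiripentol was therefore also computed within each set. In set 2, the controls and the stiripentol libraries differed in the prior, as described above. In set 2, the log2 change was 1.10 for Tap1, 0.75 for Tap2, 0.69 for H2-D1, 0.66 for B2m and 0.40 for H2-K1, each with a 95% confidence interval above 0. In set 1, it was 0.09, 0.10, -0.30, 0.11 and -1.04 for the same genes, with the intervals of Tap1, Tap2 and B2m spanning 0 and those of H2-D1 and H2-K1 below 0. Thus H2-K1 was at 0.487 of its control level in set 1 and 1.32-fold its control level in set 2. The sets were found by clustering these same values, which puts like libraries together and narrows the spread within a set. The intervals are therefore a description and hold for this match only. In this model, 36.9% of all genes were called higher and 26.5% lower in set 2, and 25.8% and 47% in set 1. Tapbp (-1.17 in set 1 and -0.44 in set 2), Psmb8 (-1.70 and -0.42) and Erap1 (-0.43 and -0.16) were lower in both sets. Psmb9 was lower in set 1 (-0.88) and near its controls in set 2 (-0.07), and Nlrc5 was -0.86 in set 1 and 0.67 in set 2.

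**Figure D2:**
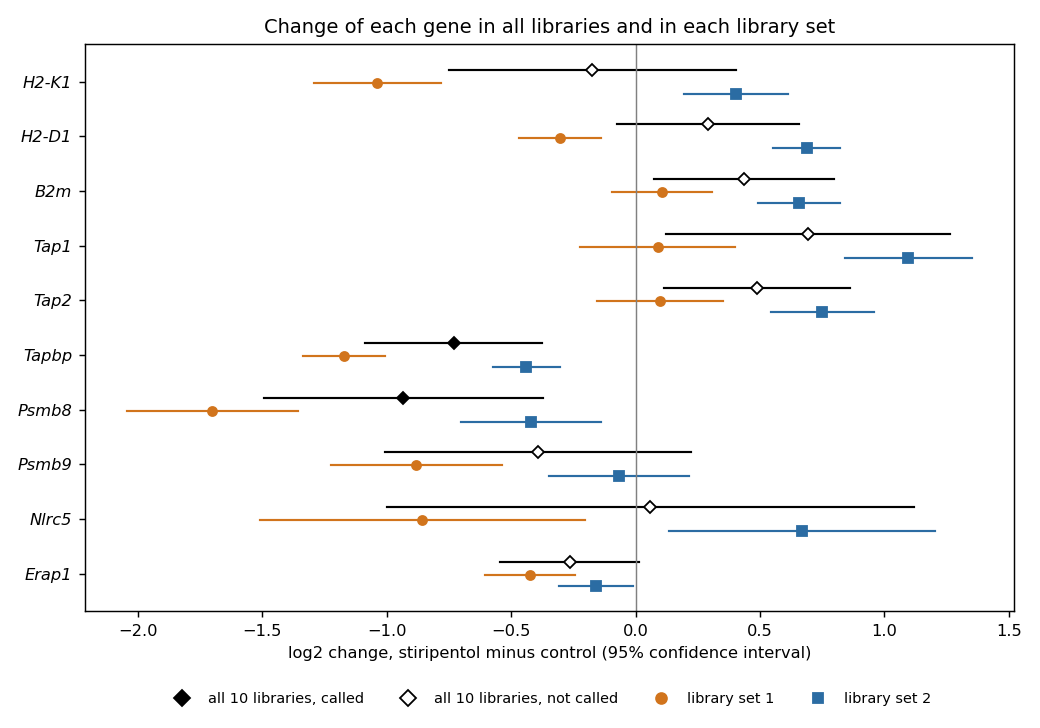
Log2 change of each gene, stiripentol minus control, with 95% confidence intervals (horizontal axis), for all 10 libraries (diamonds, filled where called), library set 1 (circles) and library set 2 (squares). Set 1 lies to the left of set 2 for all 10 genes, and H2-K1, H2-D1 and Nlrc5 lie on opposite sides of 0.

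The change was lower in set 1 than in set 2 for all 10 genes, and the difference was called for 10 of 10 in a limma model with the set as an interaction, where 63.3% of all genes were called. The median change was -0.64 in set 1 and 0.53 in set 2 over the 10 genes, against -0.25 and 0.08 over all genes. These counts depended on the scaling. After median ratio scaling, which moved the median difference between sets over all genes from -0.33 to 0.08, 6 of 10 genes were called (64% of all genes), and after quantile normalization 7 of 10 were (60%). H2-K1, H2-D1, Tap1, Tapbp and Psmb8 were called under each of these scalings, while Erap1 turned to 0.14 and 0.03. When the control and stiripentol sets were matched the other way, 9 of 10 genes were called (71.9% of all genes) and 9 had the higher change in set 1, with Nlrc5 the exception. The direction of the difference between sets thus rested on the match. Tapbp and Psmb8 were lower in either set under both matches. Any match gives this, since all their stiripentol libraries were below all controls.

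Because the level of a whole library cancels in the difference between 2 genes of that library, the genes were also compared with their partners within each library. The 8 pairs were chosen with the values known, so these differences are a description and carry no test. No share of gene pairs without overlap was computed over all genes, so the pairs without overlap have no background here. They are changes of a ratio of CPM, and the ratio itself is not a ratio of molecules, since the values are not per length.

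The immunoproteasome subunits were compared with the constitutive subunits they replace. Psmb8 minus Psmb5 (β5) was -2.83, -2.66, -2.78, -2.08 and -1.99 in controls and -3.03, -3.06, -3.16, -3.02 and -3.26 in stiripentol libraries. Psmb9 minus Psmb6 (β1) ranged from -4.15 to -3.01 in controls and from -4.83 to -4.27 in stiripentol libraries. Psmb10, which encodes the remaining immunoproteasome subunit β2i, minus Psmb7 (β2) ranged from -2.90 to -1.60 and from -3.82 to -3.29. In all 3 pairs, every stiripentol library was below every control, and the ratio was lower in both sets, with differences of -1.02 and -0.39 for β5, -1.30 and -0.76 for β1 and -1.99 and -0.76 for β2 (set 1 and set 2, log2 scale). In the test over all libraries, Psmb10 fell by 0.95 (limma adjusted p = 0.0195), whereas Psmb6 rose by 0.58 and Psmb7 by 0.30 (limma adjusted p = 0.00162 and 0.0277). Psmb5 had a log2 change of -0.29 and was not called (limma adjusted p = 0.157).

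Tap1 and Psmb9, with 225 bases between their RefSeq start sites on opposite strands, differed in the sign of their change. Tap1 minus Psmb9 was 0.68, 0.55, 1.15, 0.73 and 0.82 in controls and 1.73, 1.76, 1.82, 2.05 and 2.00 in stiripentol libraries. All stiripentol libraries were above all controls, with a mean difference of 1.09 on the log2 scale, 0.97 in set 1 and 1.16 in set 2. In GENCODE, the genes overlap over 212 exonic nucleotides on opposite strands, and reads there could have been counted for either. Tap1 minus Tap2, the subunits of 1 transporter, overlapped between groups, from -1.43 to -0.74 in controls and from -0.89 to -0.65 in stiripentol libraries.

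The partners of class I assembly also shifted against one another. Tapbp minus Tapbpl, the gene of the tapasin relative TAPBPR, was 4.25, 4.09, 4.25, 4.48 and 4.59 in controls and 3.56, 3.48, 2.99, 3.06 and 3.12 in stiripentol libraries. The ratio was lower with stiripentol in both sets, with a difference of -1.02 in set 1 and -1.14 in set 2. B2m minus H2-K1 ranged from 1.06 to 1.61 in controls and from 1.72 to 2.40 in stiripentol libraries. Every stiripentol library was above every control, by 1.14 in set 1 and 0.25 in set 2 on average. B2m minus H2-D1 overlapped between groups, from 0.12 to 0.42 in controls and from 0.16 to 0.90 in stiripentol libraries.

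**Figure D3:**
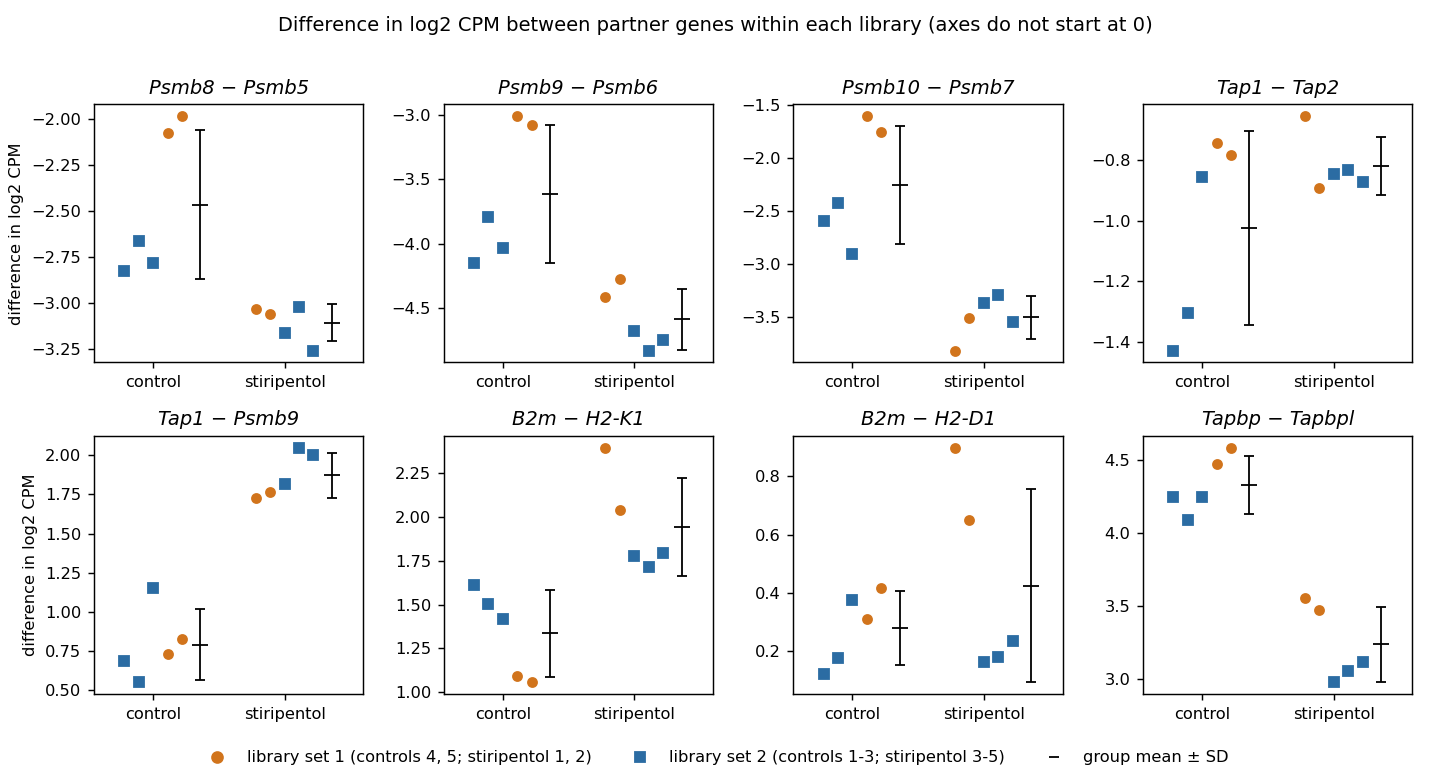
Difference in log2 CPM between the genes of 8 pairs within each library (vertical axis, not starting at 0), with library set 1 as circles, library set 2 as squares, and the group mean ± SD in black. The stiripentol libraries lie apart from the controls in 6 pairs, and the groups overlap for Tap1 minus Tap2 and B2m minus H2-D1.

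Of 79 other genes listed for class I presentation, its regulators and related ligands, 71 had a row and 54 were tested. Of these, 10 rose and 6 fell, and 38 were not called, which is 18.5% higher and 11.1% lower against 13.6% and 14.1% of all genes. The median log2 change was -0.01 over the 54 genes. In the list of other class I and class I-like genes, 10 of 19 were tested, 2 rose and 1 fell (20% and 10%). H2-M3, a class I gene that presents formylated peptides, was 3.49 to 4.25 in controls and 4.75 to 5.13 in stiripentol libraries, without overlap, and rose 2.09-fold (limma adjusted p = 0.00240). Its promoter is 1 of the 25 with the spaced pair of TGACG and ATTGG. Hfe, which regulates iron uptake, rose 1.94-fold (limma adjusted p = 0.0214), and H2-T24 fell to 0.381 of control (limma adjusted p = 0.0222). All 10 of these genes were higher in both set 1 controls than in the set 2 controls, as were 9 of the 10 pathway genes. Over all genes tested, this held for 36.8%.

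Among the 5 loading chaperones and relatives, Canx, which encodes the lectin chaperone of new heavy chains, rose 1.37-fold (limma adjusted p = 0.00341), and Lnpep, an aminopeptidase of cross-presentation, fell to 0.612 of control (limma adjusted p = 0.0131). Of the 8 proteasome counterparts, the 3 called genes were Psmb6, Psmb7 and Psmb10. Over all genes tested, 13.6% were called higher and 14.1% lower.

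Among the 21 tested regulators of class I genes, 5 rose and 2 fell (23.8% and 9.52%, against 13.6% and 14.1% of all genes). Their median log2 change was -0.20. Irf2 rose 1.67-fold (limma adjusted p = 0.0186), and Ezh2, the methyltransferase of the polycomb repressive complex that is known to silence class I genes, rose 2.19-fold (limma adjusted p = 0.00603). Nfkb1, an NF-κB subunit, and Ifngr1, the ligand-binding chain of the interferon γ receptor, fell to 0.634 and 0.739 of control (limma adjusted p = 0.0290 and 0.0354). Irf1 and Jak1 also rose 1.67-fold and 1.39-fold (limma adjusted p = 0.0314 and 0.0318). Irf1 resembled Tap1 in that controls 4 and 5, at 6.27 and 6.32, were near the stiripentol libraries (6.33 to 6.86) and controls 1 to 3 (5.20 to 5.61) were lower.

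Of the 11 listed class II genes, which serve presentation to CD4+ T cells, 8 had a row and 2 were tested. The chains H2-Aa and H2-Ab1 had at most 5 reads in any library, as did H2-DMb2 and Ctss. The tested genes were H2-DMb1, which was level between groups (log2 change -0.03), and Cd74, the invariant chain, with 416 to 2676 reads and a log2 change of 0.98 (SE 0.35, limma adjusted p = 0.0576). Neither was called. Of 8 tested ligands of other immune receptors, H60b, a ligand of NKG2D, fell to 0.675 of control (limma adjusted p = 0.0434). None of these ligands was called higher, where 14.1% of all genes were called lower and 13.6% higher. The ligands that were not called include genes with a positive change, and the median log2 change over the list was -0.09.

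**Figure D4:**
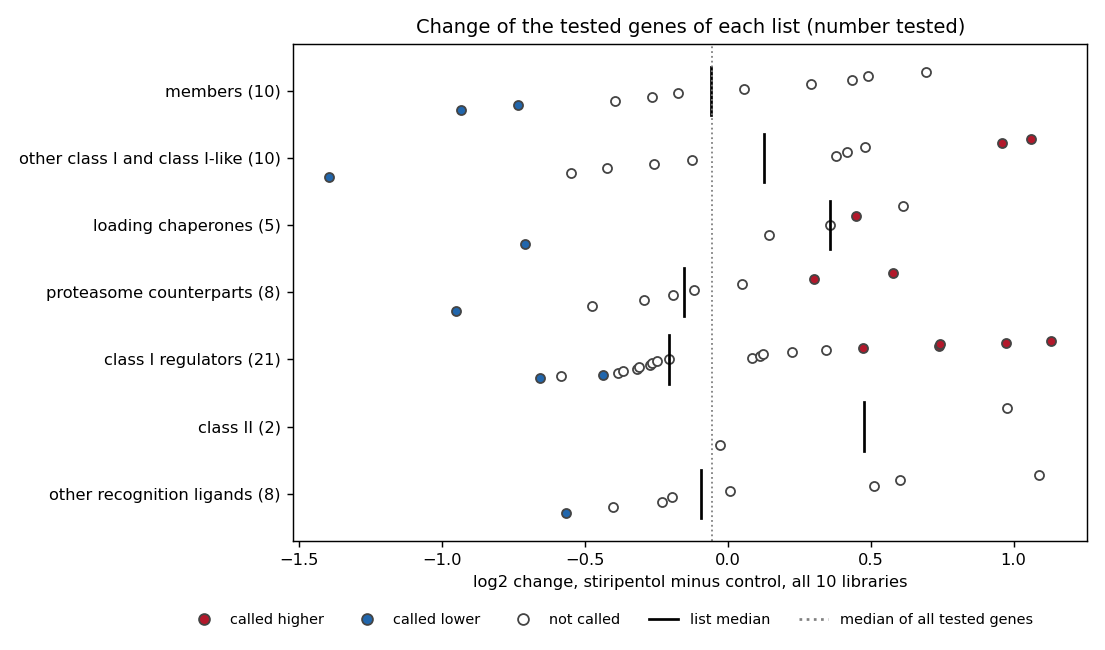
Log2 change, stiripentol minus control, over all 10 libraries (horizontal axis) of each tested gene of the 10 pathway genes (top row) and of 6 other lists, with called genes filled, list medians as black bars, and the median of all tested genes as a dotted line. The 10 pathway genes span -0.93 to 0.69, with 2 called lower and none called higher.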

How the data were processed

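The authors deposited 1 table of log2 CPM per gene and library, made with GENAVi, with a small prior added before the logarithm. Its columns of group means, ratios and p-values were not used. The kit is QuantSeq 3′ mRNA (Lexogen) in the methods and TruSeq total RNA in the records, and with a 3′ kit the reads of a gene come from its end. The submitters' processing notes name mm10. The aligner, annotation and strand setting were not given in the sources used here. Whole reads were recovered from 100% of the values (tolerance 0.1 reads), and depth bounds counting error only.

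Groups were taken from the sample titles. A two-sided test with limma 3.58.1 (R 4.3.3, eBayes with trend) was fitted to the deposited values of all genes with a mean log2 CPM above 0, with Benjamini-Hochberg adjustment over 12306 genes and no covariate. The script was tested on simulated data. The results of some listed genes are not reported here, although the counts of their lists include them. The set model used the same filter with 4 means. The named genes are the 10 members, the constitutive proteasome subunits and, from each other list, the 3 called genes with the largest rise and the 3 with the largest fall. The other genes named (overlapping genes, Tapbpl, Irf1, Jak1 and the genes of low reads) were chosen after their values were seen. The members and lists were chosen with earlier results of these data known. Positions and overlaps come from GENCODE M21 on GRCm38, the build of mm10, promoters from RefSeq on GRCm38.p6, and transcript matches from blastn 2.17.0+ (at least 90% over 200 nucleotides). Python 3.11.15, pandas 2.3.3, numpy 2.4.6 and matplotlib 3.10.9 were used for tables and figures. Alternatives were other scalings, filters and pseudocounts (0.1 and 1 CPM), limma voom, leaving out each library, a replicate block, and the library sets as a term, alone or averaged.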

Additional observations from a re-analysis of the deposited data

Results flagged for a closer look

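A library far from the other 4 of its group by Dixon's test at 95% was found in 6 of 74 groups of 5 values tested, where chance gives about 3.7, or 1 in 20. These were B2m in stiripentol 1 (log2 CPM 9.04), Tapbp in stiripentol 4 (7.89), H60b in control 3 (3.29), Ifngr1 in stiripentol 1 (6.25), Tap1 minus Tap2 in stiripentol 1 (-0.65) and the total of control 5 (22375625 reads).

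The log2 change with stiripentol differed between library sets 1 and 2 for all 10 genes in the limma interaction model. The change in set 1 minus that in set 2 was -1.44 for H2-K1, -0.99 for H2-D1, -0.55 for B2m, -1.01 for Tap1, -0.65 for Tap2, -0.73 for Tapbp, -1.28 for Psmb8, -0.82 for Psmb9, -1.53 for Nlrc5 and -0.27 for Erap1. The limma adjusted p ranged from 7.79e-06 for H2-D1 to 0.0464 for Erap1. The sets were found in the same values, 63.3% of all genes were called in this model, and the sign turned for 9 of the 10 genes when the sets were matched the other way, so these differences are a description of the libraries.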

How the results depend on the processing

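The fall of Tapbp was called under every alternative but 1, the mean per group and library set, under which no gene of the whole table was called (limma adjusted p = 0.543 for Tapbp). The 10 genes kept their direction under every scaling, filter and pseudocount, although Nlrc5 had no value with a filter of mean log2 CPM above 1. Quantile normalization moved the median change of all genes from -0.06 to 0.05.

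After quantile normalization, 1 member was called higher, 1 lower, and 16 other listed genes higher, against 17% higher and 14.5% lower of all genes. Median ratio scaling gave 2 members higher (14.5% of all genes) and 6 differing between sets (64%), and voom gave 2 higher (14.3%). With no filter, 3 other listed genes were lower (6.63% of all genes). The replicate numbers of the sample records did not pair the libraries (correlations of same-numbered libraries from -0.240 to 0.061). The replicate block left 3 other listed genes lower (8.63% of all genes) and changed no call among the 10 members.

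With a term for the library set, 3 members were higher (B2m, Tap1 and Tap2), 3 lower (Tapbp, Psmb8 and Erap1) and 10 other listed genes lower, against 23.6% higher and 27.1% lower of all genes. In set 1 alone, where 46.5% of all genes were lower, 7 members and 27 other listed genes were, with H2-D1 at -0.30 and Nlrc5 at -0.86. In set 2 alone, where 37.7% of all genes were higher and 27% lower, 6 members and 26 others were higher and 2 members and 12 others lower, with H2-K1 at 0.40. With 1 mean per group and set, 0 members were lower, 0 others higher and 0 lower, with Nlrc5 at -0.094.

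Some alternatives were chosen after seeing the data. Without the set 1 controls, 4 members and 16 others were higher (20.1% of all genes), with H2-K1 at 0.27, Psmb9 at 0.046 and Nlrc5 at -0.11. Without the set 2 controls, 5 members were lower (9.87% of all genes) and 6 others higher (10.1% of all genes), with H2-D1 at -0.025. With the set term matched the other way, 2 members (Tap2 and H2-D1) were higher and 10 others lower, with Nlrc5 at -0.094. Of all genes, 18.5% were then higher and 24.9% lower. B2m, Tap1 and Erap1, called with the first match, were not called with this one. The cause of these shifts was not tested.

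Leaving out 1 library gave 0 to 3 members higher, 1 to 2 lower, 9 to 10 differing between sets, and 6 to 11 other listed genes higher and 3 to 5 lower. Of all genes, 9.9% to 13.9% were higher and 9.52% to 14.6% lower in these runs, and 55.7% to 71% differed between sets. The count of members lower was 1 without stiripentol 2, that of other genes higher was 6 without control 2 or control 3, and that of other genes lower was 3 without stiripentol 2. Nlrc5 ranged from -0.19 to 0.42 and was negative without control 4 (-0.02), stiripentol 3 (-0.04), stiripentol 4 (-0.18) or stiripentol 5 (-0.19).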
